A study of Mus musculus with 7 samples.

Results

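The cells compared here are 2 neighbouring fractions of Dll1-expressing cells from the mouse intestine, CD24 low and CD24 medium, with 2 samples each out of the 7 samples of the series. Both came from Dll1-EGFP-ires-CreERT2 mice, in which the Dll1 promoter drives green fluorescent protein (GFP), and both were GFP-high epithelial cells that differed in the gate set on the surface protein CD24. The members were chosen by their labels alone, as the samples whose label joins high Dll1-GFP with low or with medium CD24. The series also holds 2 samples of GFP-high, CD24 high cells of the same mouse line and 1 sample of GFP-high cells of Lgr5-EGFP-ires-CreERT2 mice. Every sample, labelled with Cy3, shared a dual-colour Agilent array with Cy5-labelled RNA of whole small intestine, so a level below is log2 of sample over that reference and a difference is CD24 low minus CD24 medium on the log2 scale. Replicates are called biological in the series, but no label links them to separate animals, so p-values measure only the spread between these samples. GFP marks cells with an active Dll1 promoter, which need not be of 1 type, and in sorted pools a smaller number of cells of a type cannot be told apart from less RNA per cell.

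Dll1 is a Notch ligand. A crypt cell that makes it activates Notch in its neighbours, keeps its own Notch signal low and enters the secretory lineage, which gives rise to goblet cells that release mucus, enteroendocrine cells that release hormones and Paneth cells that release antimicrobial peptides. Tuft cells are a further rare type with sensory functions. CD24 is a surface glycoprotein that is abundant on Paneth cells and also present on enteroendocrine cells, which is why it can divide such a pool.

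Sample signal stood well above background on 56.4 and 60.5% of gene spots in CD24 low and on 55.1 and 54.5% in CD24 medium. Slide 2 carried both CD24 low arrays and medium 2, while medium 1 was on slide 1. Arrays are called low 1, low 2, medium 1 and medium 2 by gate and replicate. Cd24a, the gene of the protein used for the gate, stood at −0.68 and −0.59 in CD24 low and at 0.88 and 0.75 in CD24 medium, so the RNA followed the sort. Dll1 stood at 2.56 and 2.52 in CD24 low and at 2.81 and 2.53 in CD24 medium, and its difference of −0.13 (log2 SE 0.24, limma adjusted p = 0.93) was smaller than its spread. That difference turned to 0.10 with slide as a term and to 0.01 without medium 1. Both are genes the sort used, so neither is a finding.

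In CD24 low, 20 of 17537 genes fell and 0 rose at an adjusted p under 0.05 by limma, which is 0.114% of the genes tested for the lower and 0% for the higher direction. At an unadjusted p under 0.05 there were 947 lower and 919 higher genes, 5.4% and 5.24%. Of the 20, 8 carry the name of an alpha-defensin, the pore-forming peptides of Paneth granules, and with Lyz1 and Itln1 they form the largest group. The hormone gene Gip and the endocrine transcription factor Isl1 fell as well. The others were Npff, Svep1, Spon2, Ooep, Lypd1, a clone, an unnamed transcript and Cd24a, which was among the 20 by the sort itself. Replicates of the gates did not overlap for many more genes that did not pass, 3314 lower and 3904 higher ones, 18.9% and 22.3% of the 17500 genes with a value on all 4 arrays. Over all genes the median difference was 0.03, and 9779 of the 17537 differences were positive.

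**Figure D1:**
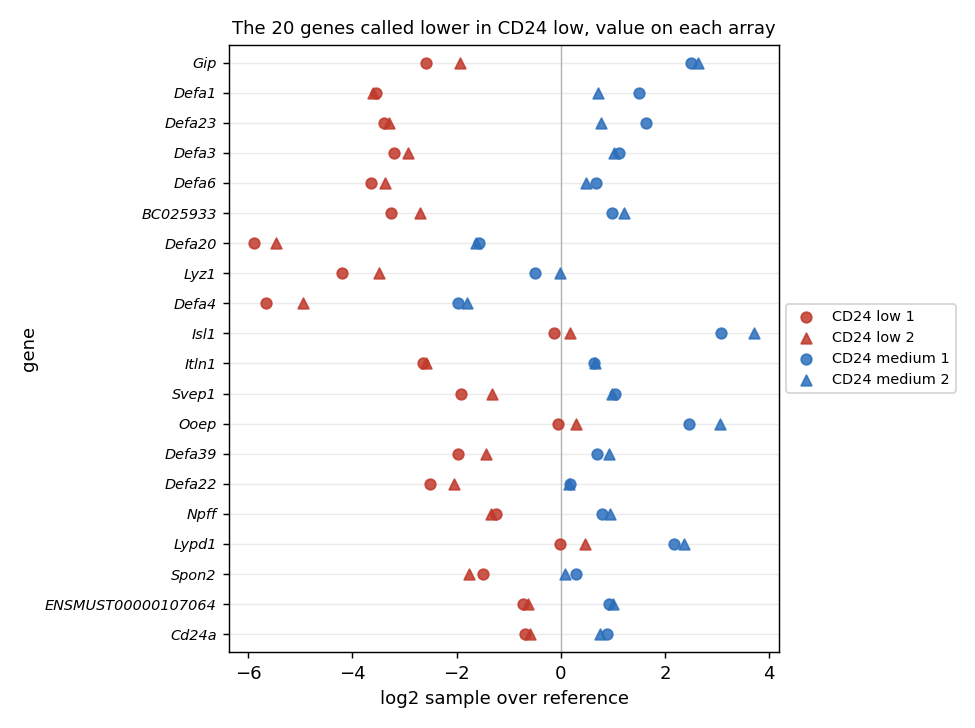
Levels (log2 sample over reference, x axis) of the 20 genes past the adjusted p threshold, 1 row per gene, ordered by the size of the difference. Red marks are CD24 low 1 and 2, blue marks CD24 medium 1 and 2; in every row both red marks lie left of both blue marks.

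The alpha-defensins are copies of each other, and the probe sequences show which letters the probes share. The 60-base probes of 7 of the 8 defensins are printed 5′ to 3′ as the array files list them, with capitals for every run of at least 12 letters shared with another probe of the set.
Defa6: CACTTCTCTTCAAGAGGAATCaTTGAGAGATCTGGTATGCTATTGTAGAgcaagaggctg
Defa1: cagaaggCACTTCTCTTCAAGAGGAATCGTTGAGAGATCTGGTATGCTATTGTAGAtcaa
Defa23: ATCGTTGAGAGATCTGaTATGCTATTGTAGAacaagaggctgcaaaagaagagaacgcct
Defa20: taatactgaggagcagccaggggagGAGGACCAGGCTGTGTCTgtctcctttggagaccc
Defa4: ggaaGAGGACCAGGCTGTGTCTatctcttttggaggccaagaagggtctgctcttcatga
Defa3: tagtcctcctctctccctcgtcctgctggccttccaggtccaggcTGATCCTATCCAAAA
Defa22: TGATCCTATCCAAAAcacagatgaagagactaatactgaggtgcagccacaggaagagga
The Defa6 and Defa1 probes share a run of 27 letters, Defa20 and Defa4 one of 18, Defa23 and Defa1 one of 16, Defa3 and Defa22 one of 15, and Defa6 and Defa23 one of 14. On mm9 these probes lie on chromosome 8 and the plus strand, at 22845161 to 22845779 for Defa6, 22194930 to 22195548 for Defa23, 22619859 to 22619918 for Defa20, 22675993 to 22676052 for Defa4, 22427132 to 22427192 for Defa3 and 22302055 to 22302114 for Defa22, while the array files give no position for Defa1. Defa6 and Defa23 span 619 bases of genome with 60 letters of probe. Whether a printed probe also binds RNA of another copy was not measured, so the value of each of these 7 is uncertain as to its copy. The 8 called defensins are for that reason not counted as 8 independent measurements. The probe of Defa39, not printed, lies on the minus strand and shares no run of at least 12 letters with the others. Its longest run shared with any of them is 6 letters.

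Defa3 stood at −3.20 and −2.94 in CD24 low and at 1.12 and 1.03 in CD24 medium, 17.7-fold lower in CD24 low (log2 SE 0.18, adjusted p = 0.0012). Defa6 stood at −3.64 and −3.37 in CD24 low and at 0.68 and 0.49 in CD24 medium (17.1-fold lower, SE 0.17, adjusted p = 0.0012). The replicates of both genes lay within 0.27 of each other, far less than the gap between the gates. Defa23 stood at −3.39 and −3.30 in CD24 low and at 1.63 and 0.78 in CD24 medium (23.4-fold lower, SE 0.29, adjusted p = 0.0047). Defa20 stood at −5.88 and −5.46 in CD24 low and at −1.57 and −1.62 in CD24 medium (16.8-fold lower, SE 0.20, adjusted p = 0.0015). CD24 medium thus lay above the whole-intestine reference for Defa3, Defa6 and Defa23 but below it for Defa20. Defa1, Defa4, Defa39 and Defa22 were 25.8-fold, 10.7-fold, 5.71-fold and 5.44-fold lower in CD24 low, with adjusted p-values of 0.014, 0.014, 0.020 and 0.019. Further probes of Defa3 and Defa39 gave differences of −4.42 and −2.42 beside the −4.15 and −2.51 of the brightest probe. The call of Defa1 ended without low 1, that of Defa4 without medium 2 or either CD24 high array, that of Defa39 without low 1, medium 2 or either CD24 high array, and that of Defa22 without any 1 array other than low 2.

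Lyz1, which encodes the lysozyme that Paneth cells secrete (chromosome 10, 116725254 to 116725313, minus strand, mm9), stood at −4.21 and −3.49 in CD24 low and at −0.50 and −0.02 in CD24 medium. It was 12-fold lower in CD24 low (SE 0.28, adjusted p = 0.014), and the call ended without medium 2 (0.081) or without either CD24 high array (0.060). Itln1, a lectin of Paneth and goblet cells that binds microbial sugars (chromosome 1, 173460678 to 173460736, minus strand), stood at −2.65 and −2.59 in CD24 low and at 0.63 and 0.65 in CD24 medium. Its replicates differed by no more than 0.06, and it was 9.58-fold lower in CD24 low (SE 0.15, adjusted p = 0.0012). Itln1, Defa3, Defa6, Defa20, Defa23, Gip and the clone BC025933 were past the threshold in all 20 other settings of the analysis.

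Of 25 genes listed as Paneth markers, chosen with earlier results of these data known, 18 were measured. Among them 7 fell in CD24 low, 0 rose and 11 did not pass, against 0.114% lower and 0% higher of all genes tested. The defensins among the 7 are not independent measurements. The median difference of the 18 was −2.18 (−1.89 against medium 2 alone, on the shared slide), beside 0.03 over all genes. Replicate values of the gates did not overlap for 16 lower members and 1 higher member, where 18.9% and 22.3% of all genes did so. Probes were kept where at least 2 of the 7 arrays measured them well above background, which the CD24 high arrays alone could meet. On the CD24 low arrays 17 and 16 of the 18 members were above it, and on the CD24 medium arrays 18 and 17. Members that did not pass moved by different amounts. Pnliprp2, a pancreatic-type lipase, stood at −2.22 and −2.70 in CD24 low and at −0.43 and 0.31 in CD24 medium (adjusted p = 0.0695). Mmp7, the protease that activates pro-defensins, stood at −0.10 and −0.06 in CD24 low and at 0.89 and 1.0 in CD24 medium (difference −1.03, adjusted p = 0.091). Wnt3, a Wnt ligand that Paneth cells supply to stem cells, stood at 0.87 and 1.5 in CD24 low and at 2.19 and 2.62 in CD24 medium (−1.22, adjusted p = 0.215). Both differences were smaller than those of the called defensins, and that contrast was not tested.

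Some Paneth markers divided the CD24 low replicates. Clps, a colipase, stood at 0.53 and −1.65 in CD24 low and at 1.38 and 1.41 in CD24 medium (adjusted p = 0.37, and 0.012 without low 1). Mptx1, a pentraxin, stood at −0.87 and −2.96 in CD24 low and at 1.22 and −0.10 in CD24 medium (−2.47, adjusted p = 0.32). Ang4, an antimicrobial ribonuclease, stood at −2.86 and −4.35 in CD24 low and at −1.57 and −2.42 in CD24 medium (−1.61, adjusted p = 0.36). In these genes low 1 lay above low 2 by 1.48 to 2.18 on the log2 scale, whereas for Lyz1, Defa3, Defa4 and Defa20 low 1 was the lower of the replicates. Reg3a, an antimicrobial lectin, was the 1 marker with a positive difference, at −2.62 and −2.61 in CD24 low and −3.73 and −3.57 in CD24 medium (1.04, adjusted p = 0.099).

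Between CD24 low and CD24 medium, Defa-rs2 was divided far more by replicate number than by gate. It stood at 7.21 in low 1 and −0.77 in low 2, and at 7.62 in medium 1 and −0.07 in medium 2. The CD24 high arrays were divided the same way, at 11.24 and 3.22. Within each replicate number this probe was lowest in CD24 low and highest in CD24 high. A second probe gave 7.98 and −0.20 in CD24 low and 8.29 and 0.20 in CD24 medium. The unannotated transcript TC1593310, named after its values were seen, showed the same division, at 7.28 and −0.14 in CD24 low and at 8.21 and −0.20 in CD24 medium. Between the gates Defa-rs2 differed by −0.55 (SE 3.78, adjusted p = 0.98), so its spread between replicates exceeded any difference between the gates.

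Promoters of 10 of the 20 called genes were matched by symbol in RefSeq sequences of build GRCm38.p6. In the 250 bases before the gene start, the TCF/LEF motif ATCAAAG, searched on both strands, was found in the 3 called defensins with a promoter (Defa20, Defa22 and Defa23) and in 13 of 16 promoters under any Defa name, against 3.21% of all 32851 promoters. Those 3 were the only ones with the motif among the 12 promoters matched to called genes. TCF/LEF factors carry the Wnt signal that Paneth cells need. In Defa20 and Defa22 the motif began at −112 and −72, and in Defa23 at −114 and −74. The Defa22 window differed from that of Defa20 by 5 letters and the Defa23 window by 55. Gip held no TCF/LEF match but 2 matches of the GATA motif AGATAA, at −188 and −69, which 9.99% of all promoters hold at least once. Motif matches describe letters only. The windows of Defa20 (chr8:21509008-21509257, plus strand) and Gip (chr11:96024295-96024544, plus strand) follow with the motifs in capitals.
Defa20: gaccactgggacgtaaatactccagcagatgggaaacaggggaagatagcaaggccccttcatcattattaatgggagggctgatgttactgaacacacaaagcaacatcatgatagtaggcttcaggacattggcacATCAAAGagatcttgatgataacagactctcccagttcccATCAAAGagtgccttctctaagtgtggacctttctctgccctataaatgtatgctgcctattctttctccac
Gip: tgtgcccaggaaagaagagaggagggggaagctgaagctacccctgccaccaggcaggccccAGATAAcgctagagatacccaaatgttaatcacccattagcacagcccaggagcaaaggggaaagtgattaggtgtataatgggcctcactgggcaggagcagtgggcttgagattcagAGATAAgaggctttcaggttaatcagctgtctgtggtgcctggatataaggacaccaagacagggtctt

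Most enteroendocrine genes had lower values in CD24 low, among transcription factors, vesicle genes and granins alike, but apart from Isl1 and Gip they did not pass the test. Of 23 measured endocrine transcription factors Isl1 fell, 0 rose and 22 did not pass, against 0.114% lower and 0% higher of all genes tested. The median difference of the 23 was −1.32 (−1.67 against medium 2), and it was −2.06 without low 2 and −0.90 without low 1. At an unadjusted p under 0.05, 15 were lower and 0 higher, against 5.4% and 5.24% of all genes. Values of the gates did not overlap for 18 lower members, against 18.9% of all genes. Paneth markers moved the same way in the same samples, and their part in the endocrine differences was not tested.

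Isl1, a LIM-homeodomain factor needed for several hormone cell types (probe at chromosome 13, 117088774 to 117088833, minus strand, mm9), stood at −0.12 and 0.18 in CD24 low and at 3.07 and 3.71 in CD24 medium. Isl1 fell, with a difference of −3.36 (SE 0.26, adjusted p = 0.014) and signal well above background on 1 of the 2 CD24 low arrays. The size depends on the processing, from −4.56 with Agilent's processed signals to −2.25 with the sample channel alone, and neither passed. The call was lost without low 1 (0.084), medium 2 (0.0525) or either CD24 high array (0.051), and with slide as a term (0.0525), while it held within slide 2 (0.023). Rfx6, which acts downstream of Neurog3, stood at 0.04 and 1.62 in CD24 low and at 4.15 and 5.12 in CD24 medium (−3.81, SE 0.53, adjusted p = 0.089). A further Rfx6 probe gave −1.98. Myt1, a zinc finger factor of endocrine precursors, stood at 0.30 and 1.23 in CD24 low and at 3.49 and 4.59 in CD24 medium (−3.27, SE 0.43, adjusted p = 0.080).

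Neurog3, the factor that commits a cell to the endocrine lineage, stood at 1.43 and 4.01 in CD24 low and at 4.86 and 5.32 in CD24 medium (−2.37, SE 0.75, adjusted p = 0.37). Low 2 was thus closer to CD24 medium than to low 1, and the difference was −3.66 with low 1 as the lone CD24 low array (adjusted p = 0.020) but −1.07 with low 2 alone (adjusted p = 0.33). Insm1, a repressor acting early in endocrine differentiation, stood at 0.10 and 2.39 in CD24 low and at 3.63 and 4.85 in CD24 medium (−3.00, adjusted p = 0.27). Pax4, a paired-homeobox factor of endocrine precursors, stood at 0.85 and 3.08 in CD24 low and at 4.58 and 5.11 in CD24 medium (−2.88, adjusted p = 0.23). In each of these 3 genes the CD24 low replicates lay over 2 apart, the CD24 medium replicates 0.5 to 1.2 apart, and all CD24 low values stayed below all CD24 medium values. Pdx1 and Foxa1, factors of gut and pancreas development, differed by −0.16 and 0.10, with adjusted p-values of 0.82 and 0.91.

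**Figure D2:**
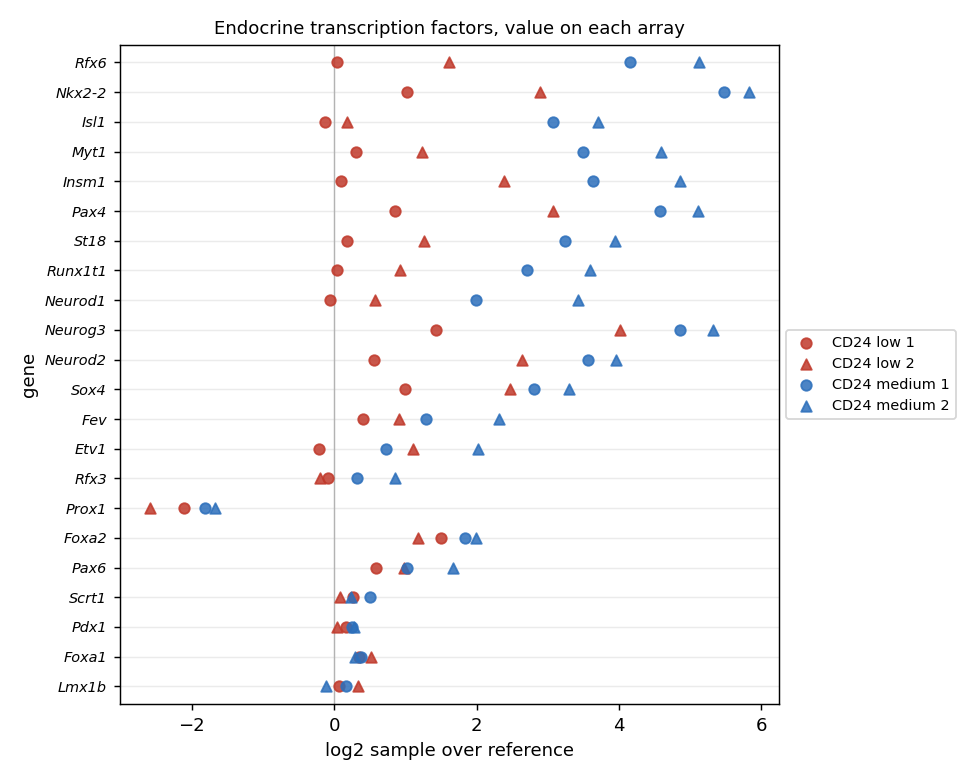
Levels (log2 sample over reference, x axis) of 22 of the 23 measured endocrine transcription factors, ordered by difference. Red marks are CD24 low, blue marks CD24 medium, circles replicate 1 and triangles replicate 2; for Neurog3, Pax4 and Insm1 the red triangle lies far right of the red circle.

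Among 14 measured hormone genes Gip fell, 0 rose and 13 did not pass, against 0.114% lower and 0% higher of all genes tested. Differences of the 14 were negative for 9 and positive for 5. Values of the gates did not overlap for 3 lower and 3 higher members, against 18.9% and 22.3% of all genes. The median of −0.68 rested on single arrays, at −0.02 without medium 2, −0.14 without low 1 and −1.52 without medium 1. Gip, the incretin of K cells (probe at chromosome 11, 95886745 to 95887966, plus strand, mm9), stood at −2.58 and −1.93 in CD24 low and at 2.49 and 2.64 in CD24 medium. It was 28.3-fold lower in CD24 low (SE 0.28, adjusted p = 0.0034), the largest difference of any gene tested here. The probe, shown because Gip led the list, reads:
Gip: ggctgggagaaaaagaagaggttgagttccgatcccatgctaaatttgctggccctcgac
No other hormone passed. Cck, the cholecystokinin of I cells, stood at 2.20 and 3.95 in CD24 low and at 3.33 and 5.04 in CD24 medium (−1.11, SE 0.70, adjusted p = 0.67). Gcg, the proglucagon of L cells, stood at 0.54 and 3.22 in CD24 low and at 2.12 and 4.40 in CD24 medium (−1.38, SE 0.98, adjusted p = 0.72). Tac1, which encodes substance P of enterochromaffin cells, stood at 1.66 and 3.29 in CD24 low and at 3.01 and 4.78 in CD24 medium (−1.42, SE 0.70, adjusted p = 0.55). For all 3, low 2 lay above medium 1, and replicate 2 was the higher one in both gates. Sct, which encodes secretin, stood at 2.06 and 2.00 in CD24 low and at 1.95 and 2.76 in CD24 medium (−0.32, adjusted p = 0.77). Nts, which encodes neurotensin, stood at −0.59 and −0.02 in CD24 low and at −2.52 and 1.51 in CD24 medium (0.19, SE 1.14, adjusted p = 0.98), so its replicates in CD24 medium lay 4.04 apart. Penk, which encodes enkephalin peptides, had the highest difference of the list, at −2.38 and −2.70 in CD24 low and −3.15 and −3.08 in CD24 medium (0.58, SE 0.25, adjusted p = 0.49).

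Granin, prohormone processing and amine genes had a median of −1.20 over 17 members (−2.03 without medium 1, −0.32 without medium 2 and −0.50 without low 1), with 0 that passed. At an unadjusted p under 0.05, 7 were lower, against 5.4% of all genes. Chgb, a chromogranin of hormone granules, stood at 1.56 and 3.45 in CD24 low and at 3.62 and 5.48 in CD24 medium (−2.05, SE 0.78, adjusted p = 0.43). Chga stood at 1.98 and 3.41 in CD24 low and at 3.02 and 4.79 in CD24 medium (−1.21, adjusted p = 0.64). Tph1, the first enzyme of serotonin synthesis in enterochromaffin cells, stood at 1.28 and 3.05 in CD24 low and at 2.83 and 4.25 in CD24 medium (−1.38, adjusted p = 0.54). The replicate 2 value exceeded the replicate 1 value in both gates for each of them. Vesicle release and excitability genes had a median of −1.15 over 22 members (−0.53 without medium 2 and −1.71 without medium 1), with 0 that passed. At the same unadjusted threshold 12 were lower, against 5.4% of all genes. Rimbp2, a scaffold of calcium channels at release sites, stood at 0.72 and 2.77 in CD24 low and at 4.75 and 5.52 in CD24 medium (−3.39, SE 0.62, adjusted p = 0.16). Celf3, a splicing regulator of neuroendocrine cells, stood at 0.91 and 3.06 in CD24 low and at 4.74 and 6.05 in CD24 medium (−3.41, SE 0.72, adjusted p = 0.215).

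Most goblet genes had somewhat higher values in CD24 low, but none passed the test. Of 28 measured goblet genes 0 passed the test in either direction. A positive difference was found in 23, against 9779 of all 17537 genes, and in 17 without low 1 and 16 without medium 2. The median was 0.22, at 0.51 against medium 2 alone, 0.38 without low 2, 0.17 without low 1 and 0.18 without medium 2. At an unadjusted p under 0.05, 6 were higher and 3 lower, and values did not overlap for 14 higher and 4 lower members, against 22.3% and 18.9% of all genes. All 28 stood well above background on all 4 arrays. Spdef, a transcription factor of goblet and Paneth maturation, stood at 3.79 and 3.52 in CD24 low and at 3.74 and 3.25 in CD24 medium (0.16, SE 0.21, adjusted p = 0.89). Tff3, the trefoil peptide of goblet cells, stood at 4.14 and 3.45 in CD24 low and at 3.42 and 3.15 in CD24 medium (0.51, SE 0.25, adjusted p = 0.55). Muc2, the main gel-forming mucin, stood at 2.94 and 2.35 in CD24 low and at 2.12 and 1.38 in CD24 medium (0.90, SE 0.30, adjusted p = 0.39), and further probes gave 0.55 and 0.64. Bcas1, a gene high in goblet cells, stood at 3.40 and 3.37 in CD24 low and at 2.71 and 2.13 in CD24 medium (0.97, SE 0.25, adjusted p = 0.28).

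The goblet genes with the widest gaps were also those whose replicates disagreed. Zg16, a lectin of mucus granules, stood at 3.18 and 1.29 in CD24 low and at 0.73 and 0.17 in CD24 medium (1.79, SE 0.63, adjusted p = 0.41). Clca1, a metalloprotease of mucus, stood at 4.29 and 2.33 in CD24 low and at 2.63 and 0.61 in CD24 medium (1.69, SE 1.23, adjusted p = 0.73). In both genes replicate 1 exceeded replicate 2 in each gate, and over all 28 genes the median of low 2 minus low 1 was −0.33 and that of medium 2 minus medium 1 −0.39. A few goblet genes were lower in CD24 low. Spink4, a trypsin inhibitor of goblet cells, stood at 2.41 and 2.84 in CD24 low and at 3.79 and 3.47 in CD24 medium (−1.0, SE 0.21, adjusted p = 0.215). Retnlb, a resistin-like peptide, stood at −1.19 and −2.15 in CD24 low and at 0.50 and −1.04 in CD24 medium (−1.40, SE 0.52, adjusted p = 0.43). Spink4 and Retnlb were also higher in the 2 CD24 high arrays, at 5.64 and 5.51 and at 0.68 and 0.69, than in CD24 low. Genes of mucin glycosylation had a median of 0.33 over 18 members (0.13 without low 1 or without medium 2), 15 of them positive and 0 that passed, with Chst4, a sulphotransferase, at 0.81 (adjusted p = 0.23) and St6galnac2, a sialyltransferase, at −0.72 (adjusted p = 0.23).

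**Figure D3:**
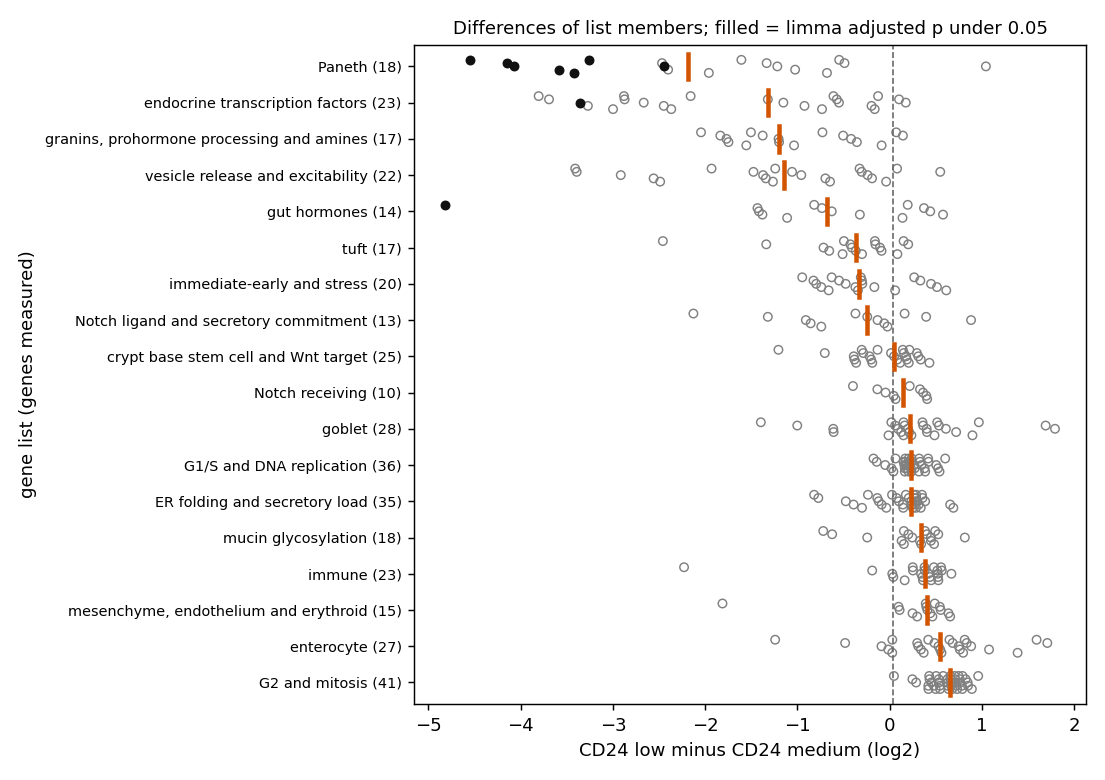
Differences (CD24 low minus CD24 medium, log2, x axis) of every measured member of the 18 gene lists, with the number measured in brackets. Filled points passed the adjusted p threshold, orange bars are list medians, and the dashed line is the median of all genes at 0.03; filled points occur in the Paneth, endocrine transcription factor and gut hormone rows, and all 41 G2 and mitosis points lie right of 0.

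Mitotic genes had higher values in CD24 low by less than 1 on the log2 scale, and none passed the test. Of 41 measured genes of G2 and mitosis 41 had a positive difference, from 0.05 to 0.96, with a median of 0.66 (0.69 against medium 2), and 0 passed. Values of the gates did not overlap for 40 of them, against 22.3% of all genes, and 31 were higher at an unadjusted p under 0.05, against 5.24%. These genes rise and fall together in the cell cycle, so they are not 41 independent measurements. Top2a, the topoisomerase of dividing cells, stood at 0.38 and 0.94 in CD24 low and at −0.24 and −0.36 in CD24 medium (0.96, SE 0.22, adjusted p = 0.25), and its second probe gave 0.42. Cdk1, the kinase that starts mitosis, stood at −0.30 and −0.06 in CD24 low and at −1.01 and −1.04 in CD24 medium (0.84, SE 0.16, adjusted p = 0.17). Ccna2, its partner cyclin A, stood at −0.25 and −0.20 in CD24 low and at −1.0 and −1.01 in CD24 medium (0.78, SE 0.15, adjusted p = 0.18). Mki67, a protein of dividing nuclei, stood at 0.56 and 0.36 in CD24 low and at −0.03 and −0.41 in CD24 medium (0.68, SE 0.26, adjusted p = 0.43). The exception to the separation was Pttg1, the securin that holds back chromatid separation, at −0.61 and −0.08 in CD24 low and −0.54 and −0.24 in CD24 medium.

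The median level of the mitotic list was 0.19 and 0.21 in CD24 low and −0.36 and −0.41 in CD24 medium. It was −1.15 and −0.74 in CD24 high and 0.70 in the Lgr5 sample, so CD24 low lay between the Lgr5 sample and CD24 medium. The replicates of a gate differed by a median of 0.12 in CD24 low and −0.05 in CD24 medium, less than the gap between the gates. Genes of G1/S and DNA replication had a median of 0.22 over 36 members (0.44 without medium 1, 0.15 without low 1 and 0.04 without medium 2), 33 of them positive, with 0 that passed. At an unadjusted p under 0.05, 3 were higher, against 5.24% of all genes. Values did not overlap for 16 higher members, against 22.3% of all genes. Mcm10, a factor of replication initiation, stood at 0.69 and 0.81 in CD24 low and at 0.26 and 0.04 in CD24 medium (0.60, SE 0.20, adjusted p = 0.39).

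**Figure D4:**
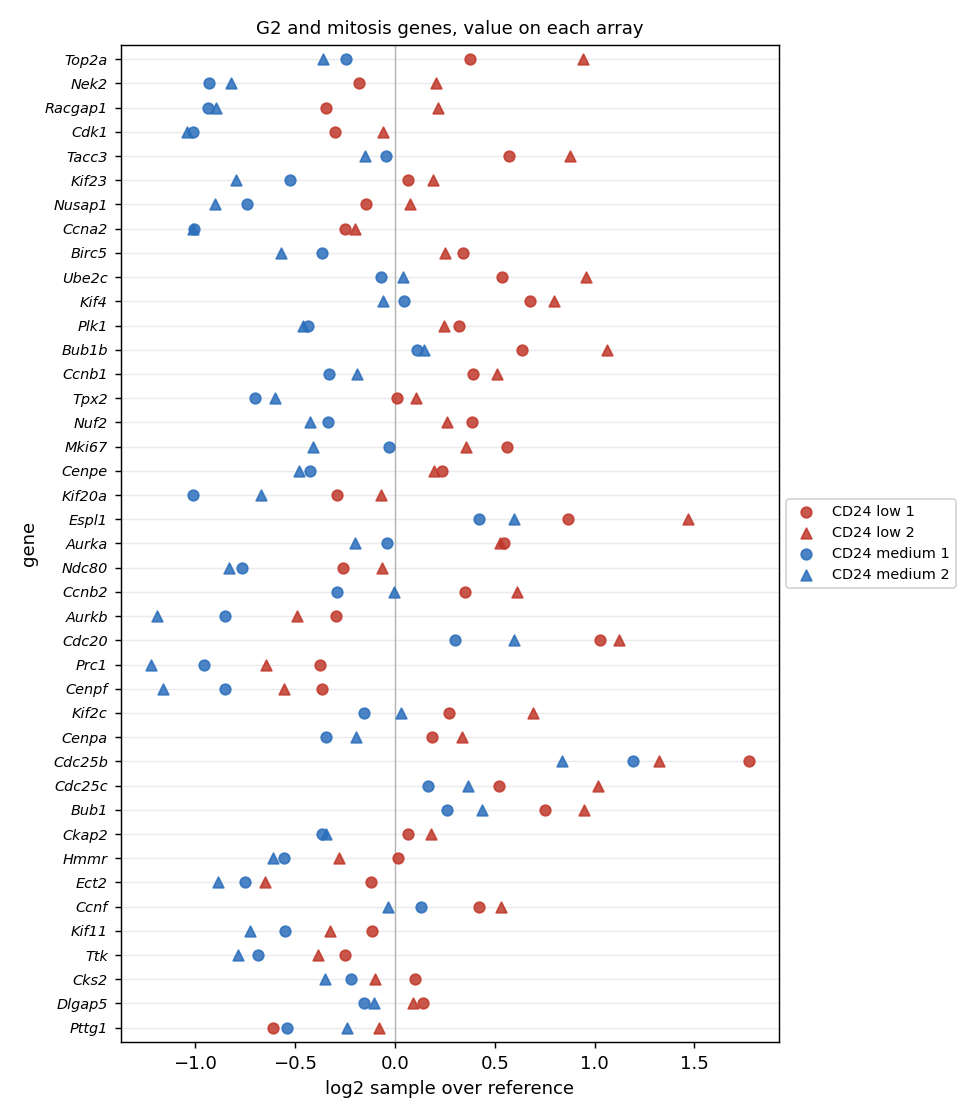
Levels (log2 sample over reference, x axis) of the 41 measured genes of G2 and mitosis, ordered by difference from Top2a down to Pttg1. Red marks are CD24 low, blue marks CD24 medium, circles replicate 1 and triangles replicate 2; in 40 rows both red marks lie right of both blue marks, by 0.96 on average for Top2a.

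No gene of secretory commitment or the Notch pathway passed. Of 13 genes of Notch ligands and secretory commitment 0 passed, and the median was −0.24 (−0.38 without medium 1). Atoh1, the master regulator of the secretory lineage, stood at 1.67 and 1.67 in CD24 low and at 1.21 and 0.37 in CD24 medium (0.88, SE 0.33, adjusted p = 0.43). Mfng, a glycosyltransferase that modifies Notch, stood at −0.15 and 0.15 in CD24 low and at 1.55 and 2.70 in CD24 medium (−2.13, SE 0.39, adjusted p = 0.20). Dll4, a second Notch ligand, differed by −0.24 (adjusted p = 0.89). Of 10 Notch-receiving genes 0 passed, between −0.40 for Lfng and 0.41 for Notch2. Further probes gave −0.45 for Lfng and −0.31 for Notch2, the latter with the opposite sign. Crypt base stem cell and Wnt target genes had a median of 0.05 over 25 members with 0 that passed, which turned to −0.22 when Agilent's processed signals were used and −0.17 for the sample channel alone. Lgr5 stood at −1.23 and −0.75 in CD24 low and at −0.66 and −0.54 in CD24 medium (−0.39, SE 0.20, adjusted p = 0.57), and Ephb3, a receptor that positions cells along the crypt, at 0.21 and 0.45 in CD24 low and 1.35 and 1.72 in CD24 medium (−1.21, SE 0.20, adjusted p = 0.13).

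Tuft genes had a median of −0.37 over 17 members with 0 that passed (−1.02 with processed signals, −0.20 without low 2 and −0.21 without medium 1). Gng13, a G protein subunit of taste and tuft cells, stood at −0.30 and −0.47 in CD24 low and at 2.57 and 1.57 in CD24 medium (−2.46, SE 0.33, adjusted p = 0.082). Trpm5, the cation channel of the same pathway, stood at −0.54 and −0.87 in CD24 low and at 1.04 and 0.23 in CD24 medium (−1.34, SE 0.28, adjusted p = 0.215). Dclk1, a defining tuft marker, overlapped between the gates, at −0.82 and −1.11 in CD24 low and −0.62 and −1.14 in CD24 medium (−0.09, SE 0.22, adjusted p = 0.95). Gng13 and Trpm5 thus separated the gates where Dclk1 did not.

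Markers of absorptive and non-epithelial cells leaned towards CD24 low. Of 27 enterocyte genes 0 passed and 23 were positive, against 9779 of all 17537 genes. The median of the 27 was 0.55, with per-array medians of −2.83 and −2.95 in CD24 low and −3.61 and −3.12 in CD24 medium. At an unadjusted p under 0.05, 14 of them were higher and 1 lower, against 5.24% and 5.4% of all genes. Values of the gates did not overlap for 17 higher and 1 lower enterocyte genes, against 22.3% and 18.9% of all genes. The genes with the widest gap were highest in low 1. Ada stood at −1.95 and −4.10 in CD24 low and at −4.75 and −4.72 in CD24 medium, and Fabp1, which binds fatty acids, at −4.18 and −6.46 in CD24 low and −7.05 and −6.77 in CD24 medium. Of 23 immune genes 21 were positive with a median of 0.38 and 0 that passed. Of 15 genes of mesenchyme, endothelium and erythroid cells 14 were positive with a median of 0.41 and 0 that passed. At an unadjusted p under 0.05, 5 immune genes were higher and 1 lower, and 3 of the others were higher and 0 lower. Values did not overlap for 16 higher and 2 lower immune genes, and for 11 higher and 0 lower of the others. Their per-array medians lay between −1.91 and −1.71 in CD24 low and between −2.31 and −2.09 in CD24 medium for immune genes, and between −2.90 and −2.66 and between −2.96 and −2.87 for the others. With the sample channel alone the medians were 0.06 in both lists. Lyz2, an immune marker here, differed by −2.23 (adjusted p = 0.0695), but its further probe gave −0.16. The part of these markers in the other differences was not tested.

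Of the called genes outside the lists, Ooep and Lypd1 behaved like Isl1. Ooep, an oocyte-expressed gene (chromosome 9, 78225830 to 78225889, minus strand), stood at −0.06 and 0.29 in CD24 low and at 2.46 and 3.05 in CD24 medium (−2.64, SE 0.24, adjusted p = 0.023). Lypd1, a membrane-anchored modulator of nicotinic receptors (chromosome 1, 127768639 to 127768698, minus strand), stood at −0.01 and 0.45 in CD24 low and at 2.18 and 2.36 in CD24 medium (−2.04, SE 0.20, adjusted p = 0.031). Each was well above background on 1 of the 2 CD24 low arrays, and its difference depends on the processing. The difference ran from −4.05 with processed signals to −1.52 with the sample channel alone for Ooep, and from −3.73 to −1.07 for Lypd1. Neither gene was past the threshold in those settings. Isl1, Ooep, Lypd1 and Gip were the 4 of the 20 whose CD24 medium values lay above both CD24 high values, and in the other 16 both CD24 high arrays exceeded CD24 medium. The Lgr5 sample lay below both CD24 medium arrays in all 20 genes.

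Npff, Svep1 and Spon2 followed the Paneth pattern, with CD24 high arrays at 5.47 to 6.44, but second probes differed for Svep1 and Spon2. Npff, a neuropeptide precursor (chromosome 15, 102354284 to 102354343, minus strand), stood at −1.25 and −1.34 in CD24 low and at 0.78 and 0.95 in CD24 medium (4.46-fold lower, SE 0.19, adjusted p = 0.020). Svep1, an extracellular adhesion protein, stood at −1.92 and −1.32 in CD24 low and at 1.05 and 0.99 in CD24 medium (adjusted p = 0.029), but a second probe read −0.16 and −0.16 in CD24 low and −0.55 and −0.50 in CD24 medium. Spon2, a secreted matrix protein, stood at −1.49 and −1.76 in CD24 low and at 0.30 and 0.08 in CD24 medium (adjusted p = 0.029), and a second probe read −1.64 and −2.21 in CD24 low and −1.60 and −1.43 in CD24 medium. Of the 20 called genes 4 had a further probe above the filter, Defa3 and Defa39, where its difference was close to that of the first, and Svep1 and Spon2, where it was 0.36 and −0.41 in place of −2.64 and −1.81. Spon2, Lypd1 and every second probe were chosen after their values were seen. The calls of Ooep, Lypd1, Svep1 and Spon2 ended without low 1, medium 2 or either CD24 high array, those of Lypd1, Svep1 and Spon2 also without medium 1, and that of Spon2 also without low 2. That of Npff ended without low 1, low 2, medium 1 or medium 2. The remaining called genes were the clone BC025933, at −3.26 and −2.70 in CD24 low and 0.99 and 1.22 in CD24 medium, and an unnamed Ensembl transcript, 3.09-fold lower in CD24 low (adjusted p = 0.031), whose call, like that of Cd24a, ended without any 1 Dll1 array.

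No gene passed the test as higher in CD24 low, which with 2 arrays a gate does not show that none was higher. The genes nearest the threshold were named after their values were seen. Ido1, a tryptophan-degrading enzyme of the interferon response, stood at −0.98 in low 2, since its low 1 spot carried an outlier mark and was left out of the fit, and at −3.20 and −3.34 in CD24 medium (2.29, SE 0.22, adjusted p = 0.058). Its SE holds no spread between CD24 low replicates, only that of the other groups. Map3k6, a stress kinase, stood at 0.27 and 0.23 in CD24 low and at −0.88 and −0.90 in CD24 medium (1.15, SE 0.14, adjusted p = 0.077). Pfkp, a phosphofructokinase of glycolysis, stood at −0.58 and −0.61 in CD24 low and at −1.55 and −1.72 in CD24 medium (1.04, SE 0.15, adjusted p = 0.091). A second probe of Map3k6 gave 1.21, while further probes of Pfkp gave 0.39 and 0.23.

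The CD24 low replicates were about as alike as arrays of different gates. The CD24 medium replicates were more alike than any pair of a CD24 low and a CD24 medium array. Across genes, which are not independent, low 1 and low 2 correlated at r = 0.90 and medium 1 and medium 2 at r = 0.94. Between gates, low 1 and medium 1 correlated at r = 0.92, low 2 and medium 2 at r = 0.90, low 2 and medium 1 at r = 0.89 and low 1 and medium 2 at r = 0.85. Low 1 was thus closer to medium 1 than to its own replicate. The SD between replicates over all genes was 0.31 in CD24 low and 0.25 in CD24 medium. Low 1 and low 2 lay over 1 apart in 595 genes, 3.4% of those measured, and medium 1 and medium 2 in 345 genes, 1.97%.

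The genes that divided the replicates were not spread evenly over the lists. Endocrine lists were higher in replicate 2 of both gates. Of the 17 granin, processing and amine genes 16 were higher in low 2 than in low 1 and 16 in medium 2 than in medium 1, with medians of 0.99 and 1.28. Of all 17537 genes, 9040 were higher in low 2 and 9498 in medium 2. For the 23 endocrine factors the medians were 0.64 in CD24 low and 0.53 in CD24 medium, and 18 and 20 of them were higher in replicate 2. Goblet and protein folding lists ran the other way in both gates, with the folding list at −0.37 in CD24 low and −0.59 in CD24 medium. The medians of the Paneth and mitotic lists lay near 0, with 0.07 and 0.12 in CD24 low and 0.07 and −0.05 in CD24 medium, as the plot of replicate differences by list shows. Single Paneth markers moved both ways: low 2 minus low 1 was −7.98 for Defa-rs2 and 0.72 for Lyz1. Of the 18 Paneth markers measured, 12 were higher in low 2 and 11 in medium 2. Oas2 and Mx2, interferon-induced antiviral genes chosen after their values were seen, were also higher in replicate 2, Oas2 at 1.41 and 3.87 in CD24 low and 1.11 and 3.42 in CD24 medium, and Mx2 at −0.24 and 2.23 in CD24 low and −0.59 and 1.15 in CD24 medium. Without low 2, 11 genes passed as higher in CD24 low, among them Fabp1, Ada, Apoa4 and Spink1, and 30 as lower. Without low 1 there were 0 higher and 10 lower genes, without medium 1 0 and 39, and without medium 2 0 and 9.

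**Figure D5:**
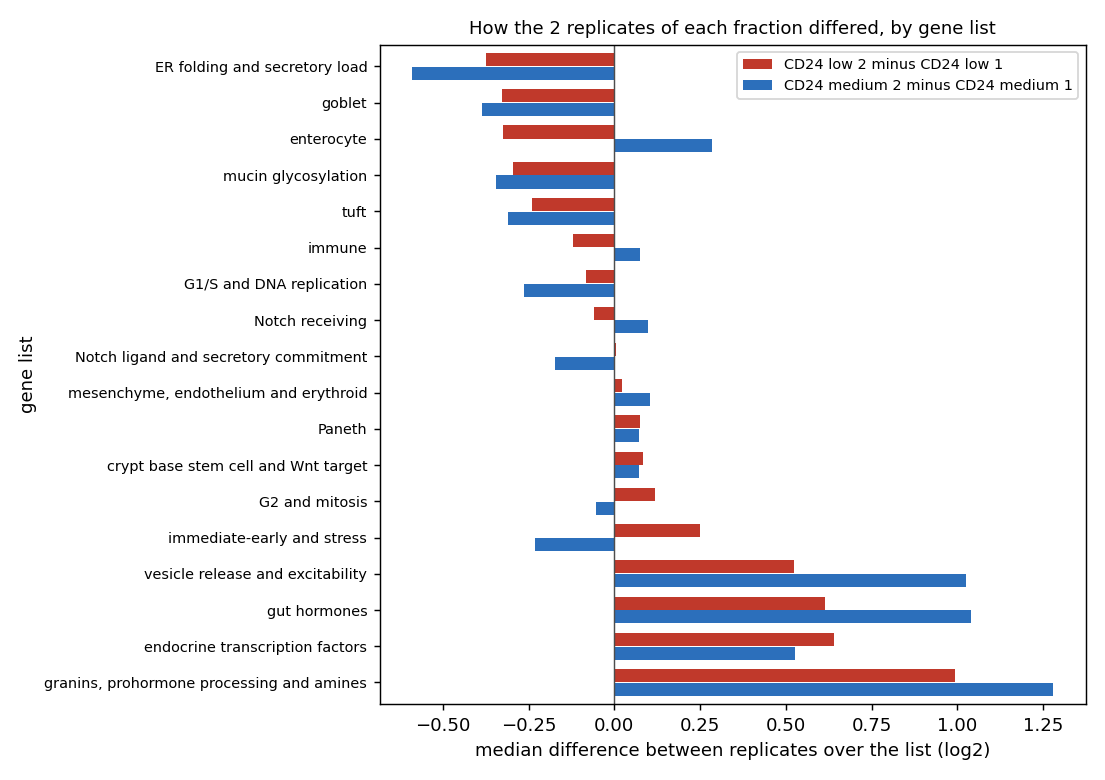
Median difference between replicate 2 and replicate 1 (log2, x axis) over each gene list, red for CD24 low and blue for CD24 medium. Bars to the right mean higher in replicate 2; the 4 endocrine rows at the bottom extend to the right in both gates, and the Paneth and mitotic rows stay within 0.12 of 0.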

How the data were processed

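RNA of GFP-high cells was measured on 7 arrays, of which the 2 CD24 low and 2 CD24 medium arrays are compared. Per the file headers, Agilent Feature Extraction 10.5.1.1 gave the spot intensity and background of both channels and a log10 ratio column. The log10 values in the deposited series matrix equal that ratio with its sign turned (largest difference 5e-06), and served as an alternative. Mean signals were corrected with normexp (offset 50) and loess (span 0.3) in limma 3.58.1 under R 4.3.3, without scaling between arrays. RefSeq accessions named 26918 of 41174 gene probes, and the array file the other 14256. Probes well above background in the sample channel on at least 2 of 7 arrays were kept (24495), and the brightest per symbol gave 17537 genes. limma fitted 1 mean per group to all 7 arrays (3 residual and 3.55 prior degrees of freedom), with Benjamini-Hochberg adjustment over all genes and a threshold of 0.05. The code was tested on simulated data. matplotlib 3.10.9 (Python 3.11.15) drew the figures.

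The 18 gene lists (402 of 438 entries measured, 5 symbols standing in 2 lists) and the members were chosen with earlier results of these data known. Named are the 15 largest differences in each direction among genes past the threshold whose replicates do not overlap, without clones or accessions, up to 6 list members past the threshold and up to 4 others with the largest differences, members of the Paneth, endocrine factor, hormone, goblet and mitotic lists, and Cd24a, Dll1, Atoh1 and Lgr5. Chga, Tph1, Dll4, Dclk1, Pfkp, Lfng, Notch2, TC1593310, Apoa4, Spink1 and others said so were chosen after their values were seen. A gene of the endocrine factor list is counted but not reported here by name. With so few arrays the precision is limited. Coordinates are mm9 as in the array files unless GRCm38.p6 is named. The alternatives were other background corrections and scalings, filters, probe rules, slide terms, the replicate block, a fit of 4 arrays, a minimum difference of 1 and leaving out each Dll1 array.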

Additional observations from a re-analysis of the deposited data

How the results depend on the processing

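The count of 20 genes became 34 without background subtraction, 12 with an offset of 16, 13 on slide 2 alone, 9 with the 4 arrays compared alone, 8 with a minimum difference of 1, and 9 to 41 over the leave-outs, where the spread of a single remaining array is taken from the other groups. Higher genes numbered 1 without background subtraction, with Agilent's processed signals and in the series matrix, and 0 to 11 over the leave-outs. Of the 20 genes, 20 stayed below 0 under each of the 20 alternatives except the filter on all 4 arrays, which kept 17, and 7 passed under all. Paneth calls numbered 4 with the 4 arrays alone or a minimum difference of 1 and 4 to 7 over the leave-outs. Endocrine factor calls numbered 0 with processed signals, the series matrix, the sample channel alone, the filter on 4 arrays, slide as a term, the 4 arrays alone and a minimum difference of 1, and 0 to 6 over the leave-outs. Medians moved as follows: Paneth −2.47 with processed signals and the series matrix, −2.10 with the sample channel alone, −2.42 with the filter on 4 arrays, −2.10 with slide as a term, −1.89 on slide 2 and −2.85 to −1.59 over the leave-outs; G2 and mitosis 0.75 with processed signals and the series matrix, 0.55 with the sample channel alone, 0.69 on slide 2 and 0.64 to 0.69 over the leave-outs; goblet 0.51 on slide 2 and 0.17 to 0.51 over the leave-outs; endocrine factors −2.06 to −0.90 over the leave-outs. Dll1 changed sign, to 0.10 when slide was a term and 0.0075 within slide 2, and ran from −0.27 to 0.0075 over the leave-outs. The causes of these moves were not tested, beyond fewer arrays or probes where the setting removes them. With the replicate number as a term (replicate block) 29 genes passed, 19 of the 20 and 2 endocrine factors, Isl1 and Rfx6. Differences between replicates correlated at r = 0.48 between CD24 low and CD24 medium, 0.30 between CD24 medium and CD24 high and −0.01 between CD24 low and CD24 high. Defa-rs2 was divided by replicate number in every Dll1 gate, and the endocrine lists were higher in replicate 2 of both gates compared. No label says whether a number stands for shared animals, so whether it pairs samples is not settled. The main fit has no term for the number, so such shifts count as spread in its p-values. Genes near background, such as Isl1 in CD24 low, have a ratio held near 0 by the offset.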
